A study of Homo sapiens with 4 samples.

Results

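The cohesin and condensin subunits are 10 genes, taken by name from the 26733 genes of the expression table: SMC1A, SMC3, RAD21, STAG1 and STAG2 of cohesin, and SMC2, SMC4, NCAPD2, NCAPG and NCAPH of condensin. Each name had 1 row, and all 10 passed the filter on low counts that left 15910 genes for testing. The samples were 2 libraries of Jurkat cells given GNE987 at a labelled amount of 25 nmol (no volume is stated) and 2 libraries of Jurkat cells without it, at 24 h. Jurkat is an established human line of T-cell acute lymphoblastic leukaemia, and both groups are this 1 line. GNE987 is a chimeric degrader that brings BET bromodomain proteins to the VHL ubiquitin ligase. The labels do not name a vehicle for the untreated cells and do not say whether replicates were separate cultures. The p-values therefore cover no more than how these 4 libraries vary, possibly for technical reasons.

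Cohesin and condensin are ring-shaped ATPases of the SMC (structural maintenance of chromosomes) family. In cohesin, SMC1A and SMC3 pair, the kleisin RAD21 closes the ring and either STAG1 or STAG2 binds RAD21. The ring holds sister chromatids together until RAD21 is cut at anaphase, and in interphase it forms chromatin loops. In condensin, SMC2 and SMC4 pair. Condensin I adds the kleisin NCAPH and the HEAT-repeat proteins NCAPD2 and NCAPG, condensin II has NCAPH2, NCAPD3 and NCAPG2 in their place, and both compact chromosomes in mitosis.

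Total counts were 17024157 and 16041022 in the GNE987 libraries, and 18938465 and 18441248 in the untreated libraries. All 9 T-cell markers examined had reads, with a median log2 fold change of -1.64. CD3D had 343 and 343 CPM with GNE987 and 468 and 436 CPM without, the smallest of the falls counted below. CD28 had 19.4 and 16.5 CPM with GNE987 and 129 and 109 CPM without, and CD2 0.263 and 0.580 against 7.90 and 6.22 CPM. CD7, the marker that rose, had 201 and 231 CPM with GNE987 and 138 and 158 CPM without. It did not pass with library size alone (edgeR, adjusted p = 0.286). CD3E had 717 and 823 CPM with GNE987 and 507 and 639 CPM without, and did not pass (edgeR, adjusted p = 0.0688). CPM is the count scaled to library size with TMM factors. The T-cell markers summed to 1482 and 1633 CPM with GNE987 and to 1757 and 1776 CPM without; 1 rose and 6 fell (0 and 5 without either GNE987 library, 2 and 6 without untreated replicate 1, 2 and 7 without untreated replicate 2). For all 7 subunit genes called below, the second untreated library was the nearer one to the GNE987 mean, at 3.29% to 32.7% of the way there from the first. The same library held 15.5 CPM of the myeloid gene MPO, against 0.0898 CPM in untreated replicate 1, with 72.6 and 77.3 CPM in the GNE987 libraries. Its part in the results was not tested, and values without it are given below. Myeloid markers (8 of 9 with a row) summed to 155 and 159 CPM with GNE987, against 14.2 and 43.0 CPM without. CSF1R (0.985 and 1.09 CPM) and LYZ (1.05 and 1.30 CPM) were low even with GNE987. Of 6 tested, 3 rose (CD14, CSF1R and LYZ), beside 34.4% of all genes tested. The count was 5 without either untreated library and 0 without either GNE987 library, with medians of 5.59 without untreated replicate 2 and 3.12 with all libraries (log2 fold change). Without untreated replicate 1 the median was 2.22. MPO, ITGAM and S100A9 did not pass with all libraries (edgeR, adjusted p = 0.0702, 0.0531 and 0.761). S100A9 had 13.3 and 11.8 CPM with GNE987 and 13.3 and 12.8 CPM without. CD33 and S100A8 stayed under 1 CPM in every library. Erythroid markers (2 of 4 with a row) summed to 0.919 and 0.870 CPM with GNE987 and to 0.0898 and 0.0494 CPM without, epithelial ones (3 of 5) to 1.18 and 1.52 against 6.51 and 5.53 CPM, and fibroblast ones (4 of 5) to 9.19 and 9.06 against 2.33 and 2.52 CPM. HBA1, ALAS2, KRT8, KRT18, COL3A1 and DCN stayed under 1 CPM in every library. The part of these markers in the results below was not tested.

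The comparison asked how the messages of the 2 complexes differed after exposure to the BET degrader. The cohesin genes that passed were all lower and the condensin genes that passed all higher. Of the 5 cohesin genes 3 were lower with GNE987 (SMC3, STAG1 and STAG2) and 0 higher, and of the 5 condensin genes 4 were higher (SMC4, NCAPD2, NCAPG and NCAPH) and 0 lower. SMC1A, RAD21 and SMC2 did not pass the threshold, an adjusted p of 0.05 by the quasi-likelihood test of edgeR with Benjamini-Hochberg adjustment over all genes tested. Of the 15910 genes tested 71.6% were called, 34.4% higher and 37.2% lower, so 7 calls among 10 genes is a share like that of the whole table, and what follows is about which subunits moved and by how much. The median log2 fold change was -1.68 for the cohesin genes and 0.59 for the condensin genes, beside -0.03 for all genes tested. At an unadjusted p below 0.05 the counts of cohesin genes higher and of condensin genes lower were also 0. SMC1A, RAD21 and SMC2 had unadjusted p of 0.934, 0.413 and 0.869 (edgeR), so that threshold could add no gene. Both counts were 0 too in the DESeq2 test, where 25.2% of all genes were higher and 27.8% lower. That test used the same 4 libraries and is not separate evidence.

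Without untreated replicate 2 the same 7 genes were called in the same directions, beside 81.2% of all genes. The log2 fold changes were then -1.68 for SMC3, -2.58 for STAG1 and -1.77 for STAG2, and 0.70 for SMC4, 0.64 for NCAPD2, 2.20 for NCAPG and 0.79 for NCAPH. This fit assumes that the lone untreated library varies like the GNE987 pair.

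**Figure D1:**
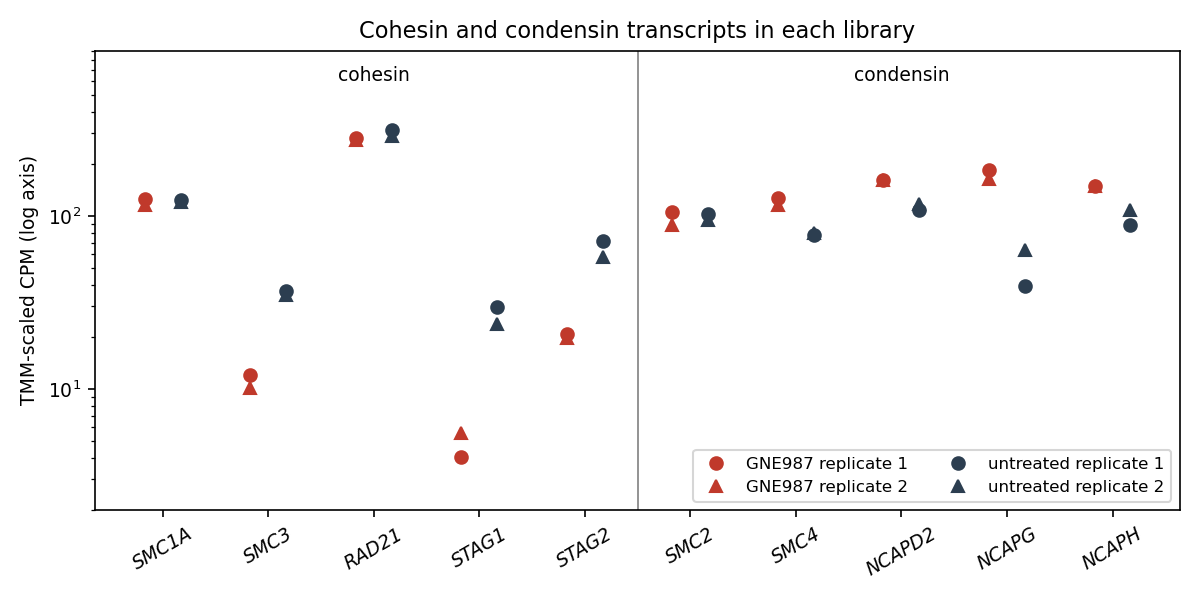
TMM-scaled CPM (log axis) of the 10 subunit genes in each library, with GNE987 in red to the left and untreated in dark blue to the right of each gene; circles are replicate 1 and triangles replicate 2. STAG1 sits at 4.07 and 5.58 CPM with GNE987 against 29.8 and 23.6 CPM without, and NCAPG at 185 and 164 against 39.4 and 63.5 CPM, while the points of SMC1A and SMC2 overlap.

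In the cohesin ring, SMC3 fell and its partner SMC1A did not pass. SMC3 (ENSG00000108055, chromosome 10 from 110567691 to 110604636, plus strand, GRCh38) encodes the ATPase whose head is acetylated to lock cohesin onto sister chromatids. It had 12.0 and 10.1 CPM in the GNE987 libraries (counts of 183 and 139) and 36.9 and 35.1 CPM in the untreated libraries (822 and 710). The groups were far apart and each pair was close together. The log2 fold change was -1.70 ± 0.15 (SE), 3.25-fold lower with GNE987 (edgeR quasi-likelihood test, adjusted p = 0.000599). SMC1A (ENSG00000072501, chromosome X from 53374149 to 53422728, minus strand), the other arm of the ring, had 126 and 116 CPM with GNE987 and 124 and 121 CPM without. The untreated values lay inside the range of the treated ones, with a log2 fold change of -0.01 ± 0.12 (edgeR, adjusted p = 0.941).

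RAD21 (ENSG00000164754, chromosome 8 from 116845935 to 116874866, minus strand), the kleisin that separase cuts, had 282 and 274 CPM in the GNE987 libraries and 313 and 288 CPM in the untreated libraries. Both treated values were below both untreated ones, but the gap was small beside the spread. The log2 fold change was -0.11 ± 0.13 (edgeR, adjusted p = 0.452). Groups that do not overlap were common, at 91.1% of all genes tested, 46.6% with the GNE987 libraries lower. With scaling by library size alone, which moved the median of all genes by -0.37, SMC1A was at -0.38 (adjusted p = 0.0464, edgeR) and RAD21 at -0.49 (adjusted p = 0.0205), so both were then called lower. RNA per cell was not measured by either scaling. In bulk RNA, fewer cells of a type and less RNA per cell cannot be told apart.

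Both STAG genes fell. STAG1 (ENSG00000118007, chromosome 3 from 136336233 to 136752403, minus strand) encodes the alternative subunit linked to telomere cohesion. It had 4.07 and 5.58 CPM with GNE987, from 62 and 77 reads, and 29.8 and 23.6 CPM without, from 663 and 478 reads. Its log2 fold change of -2.47 ± 0.23 was 5.54-fold lower with GNE987 and the largest fall among the 10 genes (edgeR, adjusted p = 0.000732). STAG2 (ENSG00000101972, chromosome X from 123960212 to 124422664, plus strand), the subunit most often mutated in cancers, had 20.7 and 19.6 CPM with GNE987 and 71.2 and 58.1 CPM without. Its log2 fold change was -1.68 ± 0.15, 3.21-fold lower (edgeR, adjusted p = 0.000629). The untreated replicates of both STAG genes differed more than those of SMC3, with replicate 2 the lower in each.

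The falls of SMC3, STAG1 and STAG2 passed under all 12 alternatives, among them a replicate block, under which 61.6% of all genes were called. Without each library in turn, their log2 fold changes ranged from -1.84 to -1.58, from -2.71 to -2.26 and from -1.77 to -1.53. The libraries do not mark the strand, and 21.2% of the exonic bases of STAG1 are shared with PCCB on the opposite strand, a gene at 16.8 and 18.6 CPM with GNE987 and 106 and 88.4 CPM without. How far reads of PCCB enter the STAG1 count was not tested. STAG2 shares 2.94% of its exonic bases with TENM1, which stayed between 1.12 and 2.02 CPM, and SMC3 shares none with another gene.

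Among the condensin ATPases, SMC4 rose and SMC2 did not pass. SMC4 (ENSG00000113810, chromosome 3 from 160399274 to 160434962, plus strand) had 127 and 116 CPM with GNE987 and 77.8 and 79.2 CPM without, a log2 fold change of 0.63 ± 0.12, 1.55-fold higher (edgeR, adjusted p = 0.00554). SMC2 (ENSG00000136824, chromosome 9 from 104094260 to 104141417, plus strand), with which SMC4 forms the arms of both condensins, had 105 and 89.0 CPM with GNE987 and 103 and 94.3 CPM without. The treated replicates of SMC2 enclosed the untreated ones, and its log2 fold change was -0.02 ± 0.14 (edgeR, adjusted p = 0.883). SMC4 shares 18.5% of its exonic bases with TRIM59 on the opposite strand, a gene at 15.4 and 16.2 CPM with GNE987 and 3.05 and 6.47 CPM without. It shares 7.18% with IFT80, also on the opposite strand, at 18.1 and 15.4 CPM with GNE987 and 5.70 and 8.44 CPM without. How far reads of TRIM59 and IFT80 enter the SMC4 count was not tested.

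All 3 condensin I subunits rose, NCAPG the most. NCAPG (ENSG00000109805, chromosome 4 from 17810902 to 17844862, plus strand), a HEAT-repeat subunit that binds DNA together with the kleisin, had 185 and 164 CPM with GNE987 and 39.4 and 63.5 CPM without. The treated libraries were well above both untreated ones, of which replicate 2 was the higher. The log2 fold change was 1.76 ± 0.25, 3.39-fold higher (edgeR, adjusted p = 0.00260). It passed under all 12 alternatives and ranged from 1.46 to 2.20 without each library in turn. NCAPG shares 33.1% of its exonic bases with LCORL on the opposite strand, whose own level of 7.42 and 6.09 CPM with GNE987 and 7.90 and 8.74 CPM without was low beside that of NCAPG.

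NCAPH (ENSG00000121152, chromosome 2 from 96335787 to 96373845, plus strand), the condensin I kleisin, had 148 and 148 CPM with GNE987, against 88.5 and 108 CPM without. Its log2 fold change was 0.59 ± 0.14, 1.51-fold higher (edgeR, adjusted p = 0.0134). NCAPD2 (ENSG00000010292, chromosome 12 from 6493356 to 6531955, plus strand), the other HEAT-repeat subunit, had 161 and 162 CPM with GNE987 and 108 and 117 CPM without, a log2 fold change of 0.53 ± 0.12, 1.44-fold higher (edgeR, adjusted p = 0.0109). NCAPD2 shares 7.49% of its exonic bases with MRPL51, at 96.5 and 101 CPM with GNE987 and 144 and 124 CPM without, and NCAPH shares none.

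SMC4, NCAPD2 and NCAPH did not pass with library size alone or without either GNE987 library, whereas NCAPG did; the sizes of their rises were smaller with library size alone and stayed close without a GNE987 library. With library size alone their log2 fold changes were 0.26, 0.15 and 0.22 (edgeR, adjusted p = 0.131, 0.320 and 0.190), and the members then numbered 1 higher and 5 lower, beside 25.8% and 45.0% of all genes (70.8% in either direction). Without GNE987 replicate 1 they were 0.57, 0.53 and 0.59 (adjusted p = 0.0820, 0.107 and 0.110, edgeR) and without GNE987 replicate 2 they were 0.70, 0.52 and 0.59 (adjusted p = 0.0549, 0.109 and 0.107), where the spread comes from the untreated pair alone. The members called were then 4 of 10 in either case, beside 38.2% and 39.1% of all genes. Without the filter on low counts NCAPD2 was at 0.38 (edgeR, adjusted p = 0.0533).

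**Figure D2:**
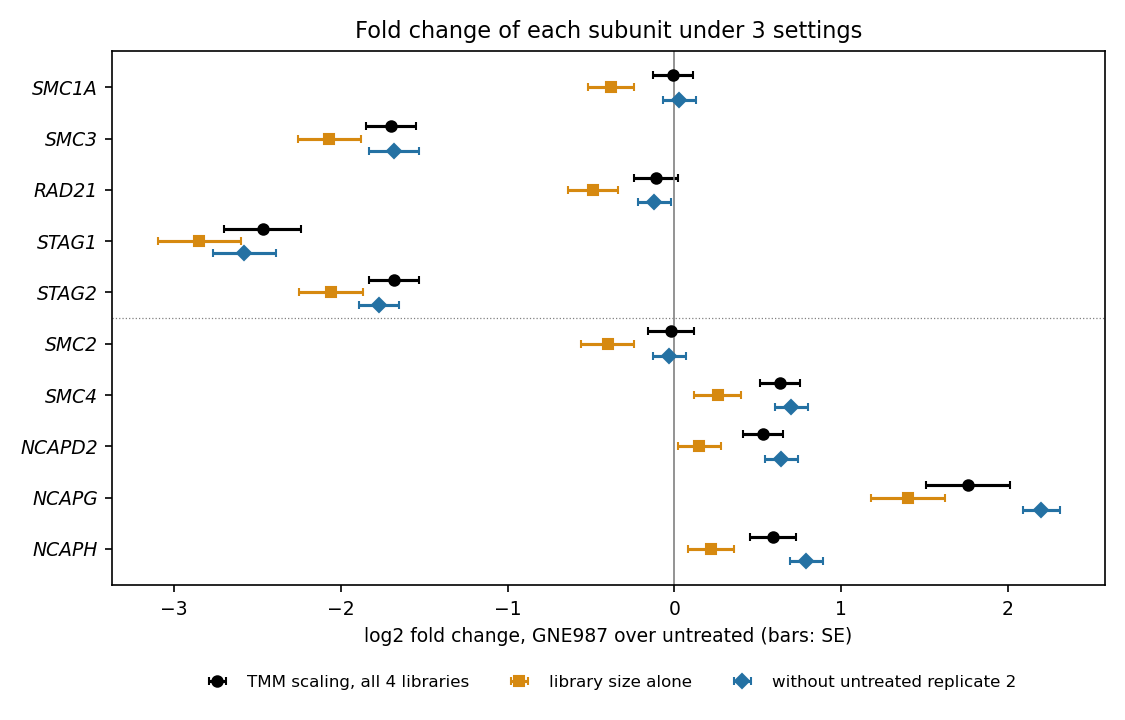
Log2 fold change of each subunit gene, GNE987 over untreated, with bars for the standard error, under TMM scaling of all 4 libraries (black circles), library size alone (orange squares) and without untreated replicate 2 (blue diamonds). SMC3, STAG1, STAG2 and NCAPG stand clear of 0 in each setting, whereas library size alone brings SMC4, NCAPD2 and NCAPH to between 0.15 and 0.26.

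Promoters of the genes that rose and of 2 that fell are shown because genes of the mitotic programme are known to be driven through a CHR element (letters TTTGAA), often beside CCAAT boxes, and G1/S genes through E2F sites. The sequences are from RefSeq on GRCh38.p14, from 250 bases before the first annotated start to 30 bases from it, 5′ to 3′ on the gene's strand. Of the 10 genes 9 were looked up, with 14 annotated starts; RAD21 is not shown. Capitals mark CCAAT boxes (CCAAT), CHR letters (TTTGAA) and E2F letters (TTTCCCGC, TTTGGCGC, TTTCGCGC or TTTGCCGC) on either strand, so that ATTGG is a CCAAT box and TTCAAA a CHR match on the opposite strand.
NCAPG, chr4:17810729-17811008, plus strand: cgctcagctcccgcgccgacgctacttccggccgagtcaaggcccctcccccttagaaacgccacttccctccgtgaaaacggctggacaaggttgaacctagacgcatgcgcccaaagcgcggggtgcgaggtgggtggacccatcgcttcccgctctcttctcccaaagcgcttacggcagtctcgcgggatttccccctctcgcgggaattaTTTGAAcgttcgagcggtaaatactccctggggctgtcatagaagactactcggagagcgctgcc
NCAPD2, chr12:6493852-6494131, plus strand: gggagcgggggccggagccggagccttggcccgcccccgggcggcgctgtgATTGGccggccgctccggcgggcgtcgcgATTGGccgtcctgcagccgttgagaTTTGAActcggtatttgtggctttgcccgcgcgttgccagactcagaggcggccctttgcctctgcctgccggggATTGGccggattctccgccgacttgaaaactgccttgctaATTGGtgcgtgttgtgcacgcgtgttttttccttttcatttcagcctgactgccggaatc
SMC4, chr3:160399400-160399679, plus strand: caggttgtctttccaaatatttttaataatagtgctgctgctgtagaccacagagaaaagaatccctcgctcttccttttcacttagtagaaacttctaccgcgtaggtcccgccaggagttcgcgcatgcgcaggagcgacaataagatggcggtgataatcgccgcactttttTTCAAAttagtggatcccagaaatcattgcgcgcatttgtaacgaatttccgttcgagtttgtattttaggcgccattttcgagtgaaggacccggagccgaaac
NCAPH, chr2:96335516-96335795, plus strand: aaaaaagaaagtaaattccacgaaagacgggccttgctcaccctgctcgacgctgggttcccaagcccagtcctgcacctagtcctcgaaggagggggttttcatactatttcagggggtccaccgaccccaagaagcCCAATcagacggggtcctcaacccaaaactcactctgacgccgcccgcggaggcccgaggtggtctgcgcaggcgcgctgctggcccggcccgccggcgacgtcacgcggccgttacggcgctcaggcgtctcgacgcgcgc
SMC3, chr10:110567445-110567724, plus strand: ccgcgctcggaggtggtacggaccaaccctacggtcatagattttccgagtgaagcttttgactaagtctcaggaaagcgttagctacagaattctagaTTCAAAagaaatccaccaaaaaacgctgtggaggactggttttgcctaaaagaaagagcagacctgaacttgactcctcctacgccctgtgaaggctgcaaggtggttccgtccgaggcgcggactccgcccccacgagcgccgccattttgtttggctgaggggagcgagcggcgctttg
STAG1, chr3:136752349-136752628, minus strand: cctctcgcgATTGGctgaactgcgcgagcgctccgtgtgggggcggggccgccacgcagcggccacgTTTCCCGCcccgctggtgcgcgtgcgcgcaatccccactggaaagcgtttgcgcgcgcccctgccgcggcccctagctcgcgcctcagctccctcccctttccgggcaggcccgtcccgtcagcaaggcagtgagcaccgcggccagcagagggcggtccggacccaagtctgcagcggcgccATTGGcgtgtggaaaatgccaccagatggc

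Of the 4 condensin genes that rose, 3 held a CHR match, in 3 of their 5 windows: NCAPG from -35 to -30 relative to the start, NCAPD2 from -145 to -140 and SMC4 from -75 to -70. NCAPH held none. Of the 3 cohesin genes that fell, 1 held a CHR match in 1 of 5 windows, SMC3 from -151 to -146, and of the 2 genes not called that were looked up 1 did, SMC2 from -3 to 3. Over all 35116 RefSeq promoter windows of this length 14.5% held one. NCAPD2 carried 4 CCAAT boxes, NCAPH 1, STAG1 2 and STAG2 3 over its starts, and 33.6% of all windows held at least 1. E2F letters were in 2 of the 3 genes that fell (2 of their 5 windows), STAG1 from -183 to -176 and the last of 3 annotated starts of STAG2 from -51 to -44, and in 0 of the 4 that rose (5 windows), and in 1 of the 2 others (SMC1A, second start, 1 of 4 windows), beside 3.14% of all windows; in STAG1 they overlap a GC box (GGGCGG). The MYC E-box CACGTG was in none of the 14 windows and in 6.94% of all. Such a match is a description of letters and not a bound site.

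Levels can be compared between genes per length with the authors' deposited FPKM, which divides by the summed exon length. By mean FPKM with GNE987, NCAPH (44.6) and RAD21 (44.4) came first and did not differ beyond their spread, followed by NCAPG (35.0), NCAPD2 (24.6), SMC2 (14.8) and SMC4 (14.2), SMC1A (11.4), SMC3 (2.55) and STAG2 (2.43), and STAG1 (0.608). SMC2 and SMC4 overlapped, as did SMC3 and STAG2. Without GNE987 the order was RAD21 (48.0), NCAPH (29.5), NCAPD2 (17.1), SMC2 (15.1), SMC1A (11.5), NCAPG (10.3), SMC4 (9.16), SMC3 (8.31), STAG2 (7.81) and STAG1 (3.36). There the neighbours SMC1A and NCAPG, NCAPG and SMC4, and SMC3 and STAG2 overlapped. By these means the rank of NCAPG among the 10 was 3 with GNE987 and 6 without. Its untreated libraries were at 8.01 and 12.6 FPKM. They also overlapped those of SMC3 (8.64 and 7.98) and STAG2 (8.71 and 6.91), so its rank without GNE987 is not firm.

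Shares within pairs of alternative or partner subunits put these levels side by side. STAG2 made up 83.0% and 77.1% of the summed FPKM of STAG1 and STAG2 with GNE987, and 69.6% and 70.2% without, a difference of 10.1 percentage points. As STAG1 shares 21.2% of its exonic bases with PCCB, reads of PCCB may enter this share, and how far was not tested. NCAPH made up 59.9% and 60.0% of the kleisin FPKM (NCAPH and NCAPH2) with GNE987, and 44.2% and 47.9% without, a difference of 13.9 points. An exact two-sided permutation test over the 6 arrangements of the libraries gave p = 0.333 for each, the smallest this design can give. These 2 shares were the ones chosen for a test.

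The other shares are described without a test. SMC3 was 18.9% and 17.5% of the FPKM of SMC1A and SMC3 with GNE987, and 42.2% and 41.6% without. SMC4 was 48.1% and 50.0% of the FPKM of SMC2 and SMC4 with GNE987, against 36.6% and 39.1% without. Against their condensin II counterparts, NCAPG was 67.8% and 66.0% of the FPKM of NCAPG and NCAPG2 with GNE987 and 31.4% and 42.2% without, and NCAPD2 80.1% and 81.4% of that of NCAPD2 and NCAPD3 with GNE987 and 51.1% and 57.1% without. In each of these pairs the libraries of the groups did not overlap. Among single genes 91.1% of those tested did not overlap either, and no such share was computed for pairs.

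**Figure D3:**
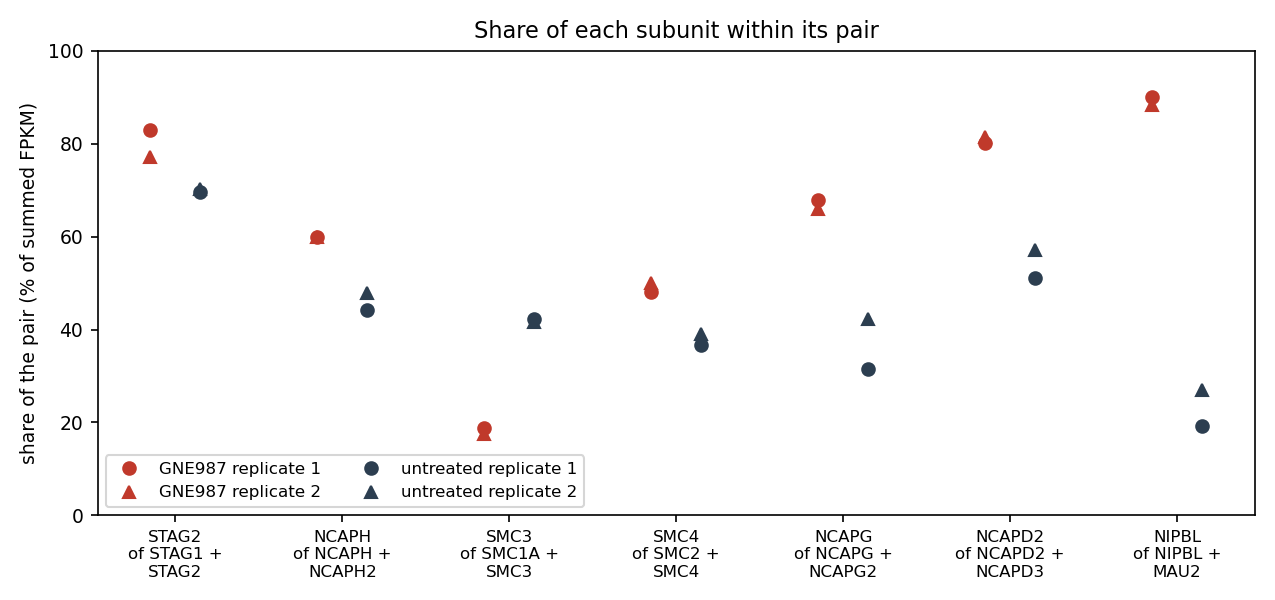
Share of the first-named gene in the summed FPKM of its pair, in percent, for each library, with GNE987 in red to the left and untreated in dark blue to the right; circles are replicate 1 and triangles replicate 2. SMC3 is at 18.9% and 17.5% with GNE987 against 42.2% and 41.6% without, and NIPBL, the cohesin loader, at 90.0% and 88.3% against 19.2% and 27.0% of the pair with MAU2.

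No gene specific to condensin II passed as higher. Of its 3 specific genes 0 rose and 1 fell, beside 34.4% and 37.2% of all genes tested. Their median log2 fold change was -0.21. NCAPD3 had 56.2 and 51.8 CPM with GNE987 and 145 and 123 CPM without, a log2 fold change of -1.31 ± 0.13 (edgeR, adjusted p = 0.00101). The kleisin NCAPH2 was at -0.21 ± 0.11 (adjusted p = 0.131, edgeR) and NCAPG2 at -0.01 ± 0.11 (adjusted p = 0.938). With library size alone all 3 were lower, beside 45.0% of all genes. That scaling moved the median of all genes by -0.37, and NCAPH2 and NCAPG2 were then at -0.59 and -0.38. Without untreated replicate 1 the median of the 3 genes was -0.25. The difference between the complexes was not tested beyond the kleisin share above.

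Genes that load, release, acetylate, protect or cleave cohesin moved both ways: of 13 tested, 6 rose and 5 fell, with a median of 0.11. Of all genes tested 34.4% rose and 37.2% fell, so moving both ways is not particular to this list. MAU2 and NIPBL, which together form the loader of cohesin, went in opposite directions. MAU2 had 6.70 and 6.74 CPM with GNE987 and 75.3 and 62.6 CPM without (log2 fold change -3.36 ± 0.15, edgeR adjusted p = 0.000292). NIPBL had 67.6 and 57.0 CPM with GNE987 and 20.2 and 26.0 CPM without (1.43 ± 0.18, edgeR adjusted p = 0.00175). The release and maintenance factors PDS5A and PDS5B fell, with log2 fold changes of -1.99 ± 0.15 and -1.80 ± 0.17, while WAPL, which opens the ring, was at -0.11 ± 0.13 (edgeR, adjusted p = 0.000459, 0.000761 and 0.453). CTCF, the DNA-binding protein at which cohesin loops stop, had 136 and 136 CPM with GNE987 and 125 and 126 CPM without (edgeR, adjusted p = 0.391). WAPL and CTCF were singled out after their values were seen, and with library size alone WAPL was called lower (-0.49, adjusted p = 0.0330, edgeR).

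Of 3 tested meiotic cohesin genes 1 rose and 1 fell. Over all genes tested 34.4% were higher and 37.2% lower, the shares to set beside this list and the next. SMC1B was at -1.83 ± 0.20 and the kleisin REC8 at 1.71 ± 0.35 (edgeR, adjusted p = 0.00115 and 0.00813), and REC8 did not pass without either GNE987 library (adjusted p = 0.0601 and 0.0552) and was at 2.33 without untreated replicate 2. STAG3 had 9.39 and 9.20 CPM with GNE987 and 6.78 and 8.05 CPM without (edgeR, adjusted p = 0.191; 0.0400 without untreated replicate 2), and RAD21L1 was too low to test. The SMC5/6 complex, the third SMC machine and a repair complex, split as well, with 4 of 8 genes higher and 3 lower (2 and 3 without GNE987 replicate 1). Its NSE subunits NSMCE1, NSMCE4A and NSMCE2 were at -2.39 ± 0.15, -2.62 ± 0.17 and -1.88 ± 0.22, whereas NSMCE3 was at 1.92 ± 0.34 (edgeR, adjusted p = 0.000315, 0.000345, 0.00148 and 0.00484). Without untreated replicate 2 the value of NSMCE3 was 2.57.

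Of 8 other proteins of mitotic chromosomes 3 rose and 3 fell. MCPH1, which restrains condensin II, had 0.657 and 0.942 CPM with GNE987 and 34.6 and 25.0 CPM without, a log2 fold change of -5.22 ± 0.30 (edgeR, adjusted p = 0.000298). Topoisomerase TOP2B fell by 1.86 ± 0.18 on the log2 scale (edgeR, adjusted p = 0.000820). TOP2A, named after its value was seen, rose by 0.91 ± 0.14 (edgeR, adjusted p = 0.00326). The chromosome kinesin KIF4A and the surface protein MKI67 rose by 1.19 ± 0.14 and 1.63 ± 0.22 (edgeR, adjusted p = 0.00158 and 0.00217). Over the 5 lists 14 of 35 tested genes were higher and 13 lower, shares near the 34.4% and 37.2% of all genes tested. With library size alone the counts were 13 and 17, beside 25.8% and 45.0% of all genes.

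Genes of G2 and M phase were mostly higher as well. Of 16 such genes 13 rose and 1 fell, with a median log2 fold change of 1.18, and their summed level was 4252 and 4436 CPM with GNE987 and 1408 and 1990 CPM without. Of 16 S-phase genes 3 rose and 11 fell (median -1.43), with sums of 3099 and 3175 CPM with GNE987 and 4386 and 4087 CPM without. Of all genes tested 34.4% were higher and 37.2% lower. With library size alone 10 G2 and M phase genes and 2 S-phase genes were higher, and 1 and 13 lower. The shares of all genes were then 25.8% higher and 45.0% lower. Without GNE987 replicate 1 the median log2 fold changes were 1.12 for the G2 and M phase genes and -1.38 for the S-phase genes. Without GNE987 replicate 2 they were 1.24 and -1.49. Fewer genes of both lists passed in either fit, as over all genes tested. The part of cell cycle position in the subunit results was not tested.

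**Figure D4:**
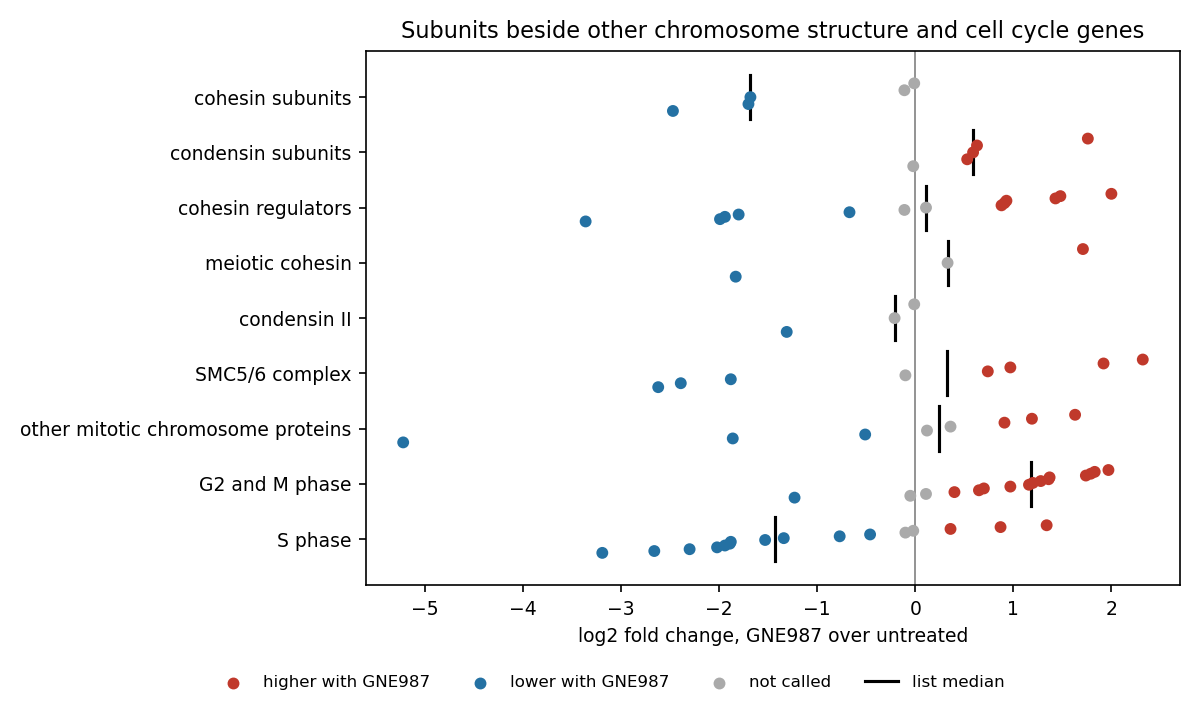
Log2 fold change, GNE987 over untreated, of each tested gene of the cohesin and condensin subunits and of 7 lists of related genes; red points are called higher, blue lower and grey neither, and black bars are list medians. Cohesin and condensin subunits have medians of -1.68 and 0.59, and the regulator and SMC5/6 lists hold genes on both sides of 0.

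From the 6452 genes averaging 20 CPM or more, those closest to each subunit in profile over the 4 libraries were found by the distance of centred log2(CPM + 1) values. STAG1 lay nearest to WDR77 (distance 0.0325) and PTPN9, STAG2 to ZFP91 (0.0262) and NDUFS6, and SMC3 to PRR3 (0.0617) and TYRO3. NCAPG lay nearest to FGFR1OP2 (0.0381) and UBN1, NCAPH to RXYLT1 (0.0119) and PRMT2, NCAPD2 to NECTIN1 (0.0219) and AAMP, and SMC4 to TGOLN2 (0.00951) and SCYL2. SMC2 lay nearest to RPS6KA3 (0.0370) and the mitotic kinase TTK, SMC1A to CHMP2B (0.0195) and FAM177A1, and RAD21 to ZMIZ2 (0.0125) and NUP54. With 4 libraries many genes share a profile, and the distances are a description.

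In the authors' deposited table, the log2 fold changes listed for the subunits ran from -2.47 for STAG1 to 1.77 for NCAPG, and an adjusted p below 0.05 was listed for 4 of them as higher and 3 as lower.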

How the data were processed

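RNA of 4 Jurkat libraries was prepared for sequencing with an Illumina TruSeq kit named in the labels' protocols; its reads carry no strand information. HISAT2 2.2.0 and hg38 appear in the submitters' processing notes; for counter, annotation and test nothing is given in the sources used here. Raw counts per gene stood in the deposited table beside a normalized signal (counts over a size factor of each library, within 5.86e-05), FPKM proportional to that signal, and the authors' log2 fold changes and p-values.

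Only the deposited counts were tested. filterByExpr of edgeR 4.0.16 (minimum count 10, total 15) kept 15910 of 26733 genes; TMM factors and the quasi-likelihood F test followed (R 4.3.3, 2 residual degrees of freedom), with Benjamini-Hochberg adjustment across the tested genes. The standard error is the log2 fold change divided by the square root of F. Coordinates are from GENCODE release 29 (GRCh38). At these depths 3 counts equal 0.158 to 0.187 CPM, a floor that covers counting error alone, since molecules were not tagged. Members and lists were chosen with earlier results of these data known. All members are named, with up to 4 genes of smallest p per related list, and WAPL, CTCF and TOP2A besides. The results of 1 further marker list are not reported here. Alternatives were other scalings and filters, DESeq2 1.42.0, robust estimation, a replicate block and each library left out.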

Additional observations from a re-analysis of the deposited data

How the results depend on the processing

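Of 120 subunit values under 12 alternatives, 95 kept their direction and their side of the threshold, 10 lost the call, 2 gained it (SMC1A and RAD21 with library size alone) and 13 changed sign. All sign changes were in the 3 genes not called. SMC1A was at 0.08 under RLE scaling, 0.19 under upper-quartile scaling and 0.16 with the 10 CPM filter, SMC2 at 0.07, 0.17 and 0.15, and RAD21 at 0.09 and 0.06 under these last 2 settings; without a library SMC1A ranged from -0.07 to 0.05 and SMC2 from -0.15 to 0.09. RLE scaling, upper-quartile scaling and the 10 CPM filter shifted all genes by a median of 0.09, 0.20 and 0.17. The cause of the sign changes was not tested. Leaving out a library gave 6070 to 12921 called genes in place of 11387, 4 to 7 called subunits in place of 7, 20 to 29 of the related genes in place of 27, and share differences of 7.13 to 13.1 points (STAG2) and 12.1 to 15.7 points (NCAPH). Library size alone moved the share of higher genes among called ones to 36.4%, against 48.0%. Replicate numbers are not said to mark a shared culture; same-numbered deviations correlated at r = -0.00138 across genes, and a replicate block called 9801 genes, 7 subunits and 27 related genes. With 62 and 77 reads, STAG1 in the GNE987 libraries had the least depth of the 10.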
